A study of Mus musculus with 18 samples.

Results

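The 6 libraries described here were made from intestinal epithelium that carries the code LI in its library descriptions, and they were compared as 3 recipients of bone marrow with T cells against 3 recipients of bone marrow alone. They were chosen by that code in the names of the count columns and are 6 of 18 libraries in the series, which also holds bulk liver and a second epithelial set with the code SI. All recipients were female BALB/cJ mice, an inbred laboratory strain, aged 6 to 8 weeks, lethally irradiated and given 10000000 bone marrow cells, and tissue was taken on day 7. The BM group had marrow only, and the BMT group had marrow plus 1000000 T cells. Both groups therefore share the irradiation and the transplant, and the comparison concerns the T cells added to the graft. The labels do not name the donor strain. The epithelial cells had been isolated from the bowel wall and lysed as a fraction, so RNA of any other cell in that fraction is counted with them.

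The sample titles call these 6 libraries small intestine, whereas their description code reads LI, so the region was examined from the genes themselves. Car1, a carbonic anhydrase of the large bowel, stood at 10139, 9535 and 9267 CPM in BM and 7585, 4567 and 6201 CPM in BMT, in the order of libraries 2, 4 and 5 and libraries 6, 9 and 10 that is used throughout, while the 6 code SI libraries held 13.2 to 558.7 CPM (counts per 1000000, with library sizes scaled by TMM). The water channel Aqp8 stood at 566, 519.9 and 566 CPM in BM and 321, 193 and 372 CPM in BMT, against 0.0429 to 5.27 CPM in code SI. The hindgut homeobox gene Hoxb13 stood at 137, 172 and 166 CPM in BM and 41.2, 106 and 175 CPM in BMT, against 0 counts in every code SI library. All 3 markers were thus higher in each code LI library than in any code SI library. The mean of 20 large intestine genes minus the mean of 24 small intestine genes, on a log2(CPM + 1) scale, ran from 2.748 to 3.899 in code LI and from -5.004 to -4.129 in code SI. The difference over 6 numbered pairs was 8.15 ± 0.36 (SD). No p is given, because high colon genes are part of how these libraries were chosen. The genes thus ran with the code and against the titles, and the set is called code LI epithelium below. Within it, Car1 (-0.66 ± 0.18, adjusted p = 0.014) and Aqp8 (-0.898 ± 0.21, adjusted p = 0.00596) fell in BMT, with no overlap between the groups. Both calls were lost when all 18 libraries shared 1 fit (adjusted p = 0.527 and 0.195). Hoxb13 overlapped between the groups (-0.56 ± 0.38, adjusted p = 0.266), and it passed without BMT library 10 (adjusted p = 0.00946) or without a filter on low counts (0.003).

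The colon is lined by a single layer of epithelial cells that is renewed from stem cells in the crypts. Absorptive colonocytes take up salt, water and the short-chain fatty acid butyrate, which they burn in their mitochondria, goblet cells secrete the mucus layer, and enteroendocrine cells release hormones. T cells that enter this layer can kill epithelial cells through granzymes and perforin, and they release interferon gamma, which acts on its receptor through JAK kinases. Promoters of the response can hold the gamma activated site (GAS), while the complex formed after type I interferon binds the interferon stimulated response element (ISRE). Typical products of the response are guanylate binding proteins, chemokines that bind the receptor Cxcr3, and the machinery that presents peptides on MHC molecules.

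Because interferon response genes rose together in these libraries, the 250 bases before the start are shown for the 4 genes of the interferon gamma list with the largest rise, a mean of at least 5 CPM and an entry in the RefSeq promoter table (GRCm38.p6). Serpina3g is a serine protease inhibitor (chr12:104235897-104236146, plus strand), Ubd a ubiquitin-like protein (chr17:37193642-37193891, plus strand), and Cxcl10 (chr5:92348890-92349139, minus strand) and Cxcl9 (chr5:92328080-92328329, minus strand) are ligands of Cxcr3. The sequences read 5′ to 3′ on the strand of the gene and end at the base before the start, with matches to either motif in capitals.
Serpina3g: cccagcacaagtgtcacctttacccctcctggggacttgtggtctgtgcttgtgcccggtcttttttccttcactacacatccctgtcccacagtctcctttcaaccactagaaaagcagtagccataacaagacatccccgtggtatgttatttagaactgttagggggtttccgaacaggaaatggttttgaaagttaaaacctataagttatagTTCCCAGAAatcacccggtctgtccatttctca
Ubd: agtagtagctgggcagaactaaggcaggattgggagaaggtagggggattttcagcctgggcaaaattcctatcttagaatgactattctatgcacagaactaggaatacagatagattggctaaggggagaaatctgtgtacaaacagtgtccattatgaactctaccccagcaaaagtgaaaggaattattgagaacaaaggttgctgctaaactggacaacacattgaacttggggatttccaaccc
Cxcl10: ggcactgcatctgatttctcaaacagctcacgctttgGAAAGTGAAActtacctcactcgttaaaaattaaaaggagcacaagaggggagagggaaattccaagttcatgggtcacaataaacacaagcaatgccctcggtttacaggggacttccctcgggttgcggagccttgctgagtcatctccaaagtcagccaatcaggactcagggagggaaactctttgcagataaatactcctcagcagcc
Cxcl9: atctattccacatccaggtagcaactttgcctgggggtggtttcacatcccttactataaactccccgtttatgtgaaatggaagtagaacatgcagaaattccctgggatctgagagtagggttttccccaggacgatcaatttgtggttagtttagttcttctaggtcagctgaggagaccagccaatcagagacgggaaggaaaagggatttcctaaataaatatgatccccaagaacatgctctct

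The motifs searched were TTCNNNGAA for GAS, which reads the same on both strands, and GAAANNGAAA on either strand for ISRE. Serpina3g held 1 GAS match (TTCCCAGAA, its first base 33 bases before the start) and Cxcl10 held 1 ISRE match (GAAAGTGAAA, its first base 213 bases before the start), while these letters were not in the windows of Ubd and Cxcl9. Of 27025 genes with such a window, 7.18% held the GAS letters, 3.04% the ISRE letters and 105 both. Among the 10411 tested genes with a window, 6.08% and 2.74% held them. Of the 35 tested members of the interferon gamma list, 20 had a window, and 50.0% of those held the GAS letters and 55.0% the ISRE letters, with 6 holding both. Of 23 windows of the type I interferon list, 13% and 47.8% held them. These shares are a description of the lists and say nothing of binding. The table has 1 window per gene here, so other start sites were not searched.

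The 6 libraries held 19632544 to 25610937 counts, and 14880 genes passed the filter on low counts. BMT library 10 stood apart from the other BMT libraries, with a chi-square per degree of freedom of 49.7 and 56.9 against them and 23.2 between those 2, and it was the only one of the 6 on lane L001. Transcripts of the mitochondrial chromosome took 9.72 to 10.7% of counts in BM and 6.24 to 7.46% in BMT. Fold changes below are BMT over BM on the log2 scale with their standard error, as value ± SE with n = 3 per group. A gene is said to have risen or fallen at an adjusted p of 0.05 in edgeR's quasi-likelihood test, adjusted over all tested genes by the Benjamini-Hochberg method. In all, 6157 genes passed, or 41.4% of those tested, 3033 of them higher (20.4%) and 3124 lower (21%), and the median over all tested genes was 0.002. A list in which a similar share of members passed is therefore near the level of all genes. Lack of overlap between the groups is given below only to describe single genes, and its share over all genes is not given. For the largest rises and falls it was a condition of naming. A change of at least 1 on the log2 scale was shown by 1592 of the higher and 1515 of the lower genes.

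**Figure D1:**
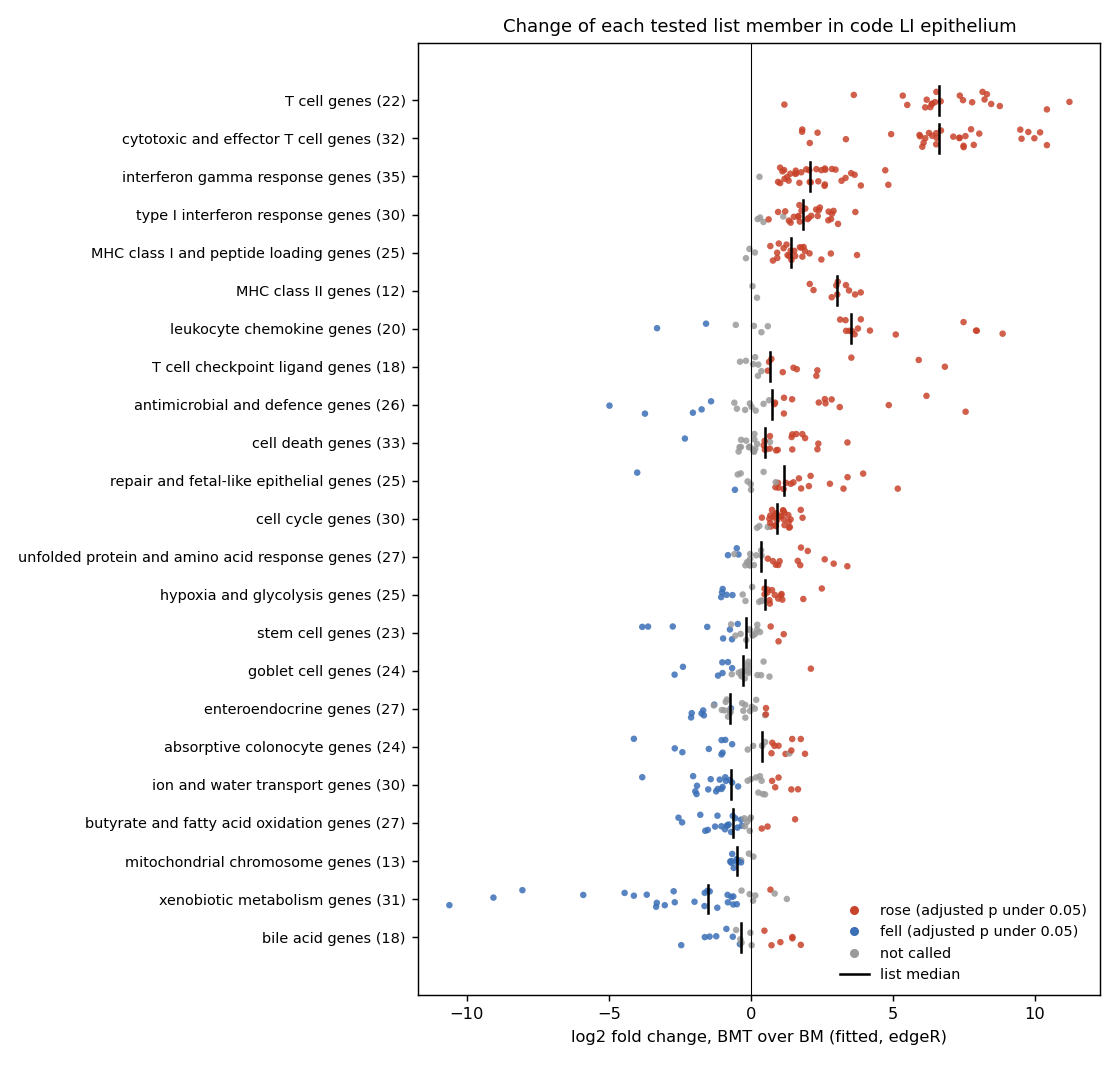
Each point is 1 tested gene of a list (number tested in parentheses), the x axis is its fitted log2 fold change, BMT over BM, colours give the call and black bars the list median. The T cell and interferon lists lie to the right of 0 and the xenobiotic list mostly to the left, with a median of -1.52.

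Genes of T cells were low in BM and rose in BMT. Of the 22 genes of the T cell list 19 were under 1 CPM in every BM library, and the other 3 were Lck (4.25, 5.13 and 5.7 CPM in BM and 68.4, 65.97 and 52.8 CPM in BMT), Tcf7 (4.001, 3.04 and 4.73 CPM in BM and 10.3, 10.8 and 5.59 CPM in BMT) and Ptprc (1.9, 0.908 and 1.52 CPM in BM and 91.99, 75.3 and 29.7 CPM in BMT). All 22 tested genes of the T cell list rose (median 6.61), as did all 32 tested genes of the cytotoxic and effector list (median 6.62). The median was 6.51 and 6.54, respectively, when genes with 0 counts in every BM library were set to their lower bound. The cytotoxic and effector list has 34 members, and Il17a and Il22 were too low to be tested. Genes near 0 in BM can pass the filter on low counts only through the BMT group. A rise of all tested members is therefore partly set by the filter. Cd4, the co-receptor of helper T cells, stood at 0.1, 0 and 0 CPM in BM and 56.9, 45.96 and 42.9 CPM in BMT, a ratio of 1651 (95% counting interval 457 to 13640). Thy1, a surface protein of T cells, stood at 0.5, 0.59 and 0.273 CPM in BM and 118, 99.997 and 83.2 CPM in BMT (7.79 ± 0.26, adjusted p = 4.31e-08). The co-receptor of killer T cells, Cd8a, stood at 0.15, 0.363 and 0.781 CPM in BM and 50.6, 42.4 and 30.1 CPM in BMT (6.49 ± 0.38, adjusted p = 6.94e-07, or 7.28 without BM library 5). In Cd4, Thy1 and Cd8a every BMT library lay far above every BM library, and the lowest BMT value belonged to library 10. Cd5, a regulator of receptor signalling, and S1pr1, the receptor that guides lymphocytes out of lymph nodes, had 0 counts in all 3 BM libraries. Against a floor of 3 counts over the group they were at least 306-fold and at least 284-fold higher, with 16.4, 13.9 and 9.92 CPM of Cd5 in BMT. Fewer cells of a type and less RNA per cell cannot be told apart in such bulk fractions.

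The killing machinery and the exhaustion receptors of T cells were both among the genes that rose. Gzma, a granzyme, stood at 0.55, 0.318 and 0.156 CPM in BM and 311, 215 and 215 CPM in BMT (9.53 ± 0.32, adjusted p = 4.31e-08). Gzmb stood at 0.8, 1.32 and 0.586 CPM in BM and 228, 189 and 165 CPM in BMT (7.76 ± 0.27, adjusted p = 4.54e-08). Perforin (Prf1), which opens the target membrane for granzymes, stood at 0.05, 0.227 and 0.0781 CPM in BM and 29.4, 17.8 and 13.3 CPM in BMT (7.35 ± 0.48, adjusted p = 1.35e-06, or 8.14 without BM library 4). The groups did not overlap in any of the 3 genes. Interferon gamma itself (Ifng) stood at 0, 0 and 0.0781 CPM in BM and 9.23, 9.37 and 5.64 CPM in BMT, a ratio of 277 (95% counting interval 76.4 to 2296). The inhibitory receptor genes Pdcd1 and Tigit held 2 and 1 counts over the 3 BM libraries, and 40.9, 40.3 and 25.7 CPM and 26.8, 17.5 and 9.25 CPM in BMT. Foxp3, the factor of regulatory T cells, rose from a low level (0.15, 0.227 and 0.117 CPM in BM and 0.747, 0.955 and 0.864 CPM in BMT; 2.35 ± 0.42, adjusted p = 0.00136). Genes of gamma delta and resident intraepithelial lymphocytes rose in 9 of 11 cases, among them Cd160 (4.38 ± 0.37, adjusted p = 8.66e-06, or 5.05 without BM library 5) and Jaml (3.05 ± 0.26, adjusted p = 8.91e-06), while the sum of that list was 54.2 to 66.3 CPM in BM and 75.3 to 104 CPM in BMT. Trdc, on the same list, was too low to be tested. The summed T cell list was 13.03 to 16.4 CPM in BM and 549 to 865 CPM in BMT.

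**Figure D2:**
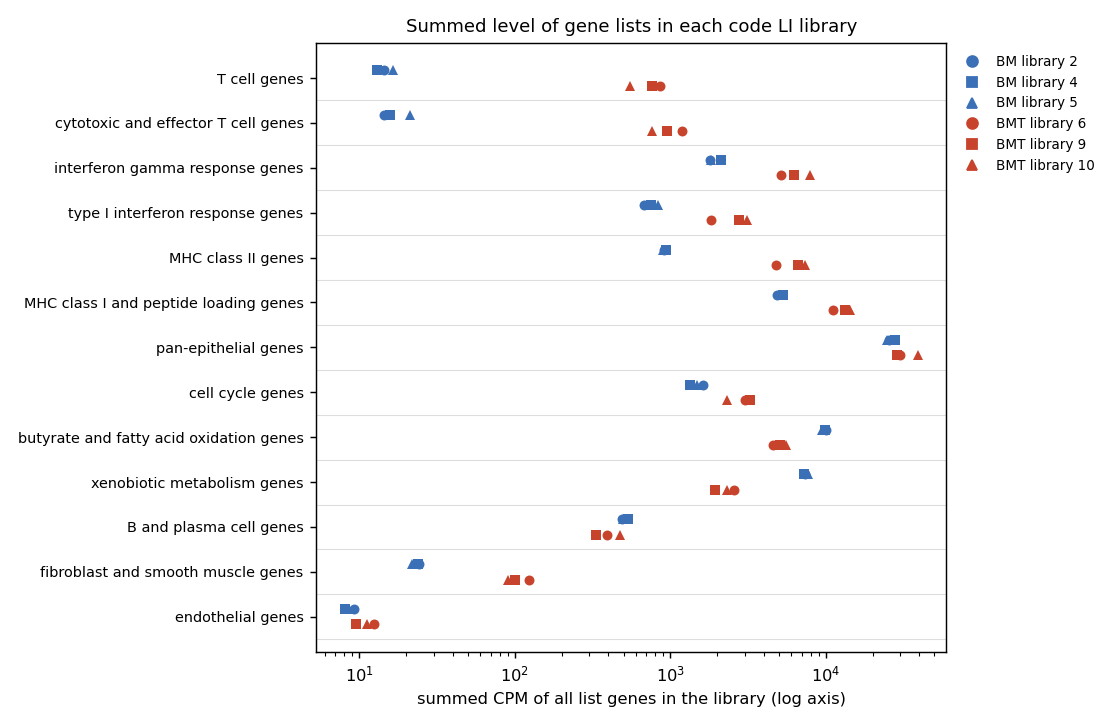
The x axis (log scale) is the sum of CPM over all genes of a list in 1 library, with BM libraries in blue and BMT libraries in red and a symbol per library. T cell sums are 13.03 to 16.45 CPM in BM and 549 to 865 CPM in BMT, and among the BMT libraries they fall from library 6 to 10 while the interferon gamma and MHC class II sums are highest in library 10.

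Interferon response genes rose almost without exception. Of 35 tested genes of the interferon gamma list 34 rose (median 2.08), the exception being Irf8 (0.31 ± 0.203, adjusted p = 0.254), and of 30 type I interferon genes 26 rose (median 1.85), with Ifit3b, Mx2, Irf9 and Ifih1 not called. Serpina3g stood at 0.55, 0.636 and 0.781 CPM in BM and 15.1, 25.04 and 17.3 CPM in BMT (4.84 ± 0.28, adjusted p = 6.23e-07). Ubd (ENSMUSG00000035186.6, chromosome 17, 37193892 to 37196095, plus strand) stood at 5.002, 9.49 and 6.05 CPM in BM and 129, 241 and 179 CPM in BMT (4.74 ± 0.295, adjusted p = 1.02e-06). Nlrc5, the transactivator of MHC class I genes, stood at 11.1, 12.2 and 12.1 CPM in BM and 66.4, 59.98 and 71.6 CPM in BMT (2.48 ± 0.14, adjusted p = 4.70e-07). No BM value of these genes reached a BMT value. Ido1, which degrades tryptophan and starves T cells of it, stood at 78.8, 153 and 60.8 CPM in BM and 1208, 919.7 and 1263 CPM in BMT (3.53 ± 0.32, adjusted p = 1.32e-05). Among type I genes, Usp18, a protease that removes Isg15, stood at 4.15, 5.22 and 5.0 CPM in BM and 40.8, 69.01 and 75.3 CPM in BMT (3.68 ± 0.24, adjusted p = 1.58e-06). Rsad2, an antiviral enzyme, stood at 4.15, 3.22 and 5.2 CPM in BM and 28.8, 36.2 and 24.5 CPM in BMT (2.83 ± 0.22, adjusted p = 5.59e-06). BMT library 6 had the lowest value of Ubd, Serpina3g and Usp18 and the highest of Cd4, Gzma and Thy1. Summed over the interferon gamma list, the libraries held 1807 to 2108 CPM in BM and 5136 to 7859 CPM in BMT, with 5136, 6259 and 7859 CPM in BMT libraries 6, 9 and 10 against 865, 758 and 549 CPM of the T cell list.

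The receptors and kinases of the interferon pathway changed less than its targets. Of 13 tested genes of ligands, receptors and kinases 2 rose, Ifng and Ifnar2 (1.44 ± 0.21, adjusted p = 0.00033), and 2 fell, which were the cytokine genes Il18 and Il15. Without BMT library 10, 5 rose. Ifngr1, the ligand binding chain of the interferon gamma receptor, stood at 221, 209 and 193 CPM in BM and 276, 258 and 243 CPM in BMT and did not pass (0.32 ± 0.12, adjusted p = 0.0593), but passed without BMT library 10 (adjusted p = 0.0156), with other size factors (0.0486), without mitochondrial genes (0.0454) or with DESeq2 (0.0365). Il18, an epithelial cytokine that drives interferon gamma release, stood at 79.4, 78.2 and 84.1 CPM in BM and 3.03, 5.08 and 7.07 CPM in BMT (-4.0000 ± 0.25, adjusted p = 1.12e-06). Il15, which maintains intraepithelial lymphocytes, stood at 20.5, 19.2 and 19.2 CPM in BM and 6.72, 6.77 and 8.59 CPM in BMT (-1.42 ± 0.17, adjusted p = 8.20e-05). In both cytokine genes each BMT library was below each BM library.

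Antigen presentation genes of both classes rose. Of 25 MHC class I and peptide loading genes 22 rose (median 1.404), and H2-T3, Erap1 and Pdia3 were not called. H2-Q7, a nonclassical class I gene, stood at 8.45, 9.22 and 6.64 CPM in BM and 89.5, 128 and 107 CPM in BMT (3.74 ± 0.19, adjusted p = 2.67e-07). Its relative H2-Q6 had 2.82 ± 0.15, adjusted p = 3.45e-07. The light chain B2m stood at 759.6, 927 and 956 CPM in BM and 2728, 3047 and 2983 CPM in BMT (1.73 ± 0.14, adjusted p = 6.39e-06). Of 12 class II genes 10 rose (median 3.03), with Ctss and Ifi30 not called. The class II chain H2-Aa stood at 89.3, 104 and 103 CPM in BM and 854, 1147 and 1257 CPM in BMT (3.46 ± 0.18, adjusted p = 2.78e-07). H2-Eb1 stood at 46.8, 49.9 and 45.04 CPM in BM and 434, 696 and 675 CPM in BMT (3.67 ± 0.196, adjusted p = 3.56e-07). Ciita, the master activator of class II genes, stood at 16.1, 17.4 and 18.7 CPM in BM and 45.2, 69.2 and 106 CPM in BMT (2.08 ± 0.26, adjusted p = 0.000135). Their lowest BMT value was in library 6 in all 3 class II genes, where dendritic cell, macrophage and T cell list sums were highest. The dendritic cell list summed to 1.77 to 2.45 CPM in BM and 22.5 to 42.5 CPM in BMT and the macrophage list to 60.8 to 64.4 CPM in BM and 127 to 192 CPM in BMT, and their part in the class II values was not tested. H2 genes have close copies and vary between strains, so single-gene counts against the reference genome are uncertain.

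Most chemokine genes and many ligands that T cells read rose. Of 20 chemokine genes 14 rose and 2 fell (median 3.52). The Cxcr3 ligands stood at 11.95, 23.6 and 17.8 CPM in BM and 109.9, 232 and 198 CPM in BMT for Cxcl9 (3.34 ± 0.31, adjusted p = 1.59e-05), and at 4.55, 7.45 and 7.81 CPM in BM and 52.6, 99.3 and 99.1 CPM in BMT for Cxcl10 (3.66 ± 0.29, adjusted p = 5.19e-06). Cxcl16, the ligand of Cxcr6, stood at 5.45, 6.68 and 3.98 CPM in BM and 57.1, 81.8 and 51.6 CPM in BMT (3.57 ± 0.24, adjusted p = 1.74e-06). All 3 had their lowest BMT value in library 6 or 10 and no overlap with BM. Ccl4, a chemokine made by activated T cells and macrophages, held 2 counts over the BM libraries and 20.2, 16.2 and 12.9 CPM in BMT. Ccl28, which the colon epithelium makes to attract antibody secreting cells, ran the other way, with 109, 113 and 115 CPM in BM and 9.63, 13.1 and 11.4 CPM in BMT (-3.301 ± 0.15, adjusted p = 1.56e-07). Of 18 checkpoint ligand genes 11 rose and 0 fell, including Cd274, the ligand of Pdcd1 (7.4, 5.86 and 6.05 CPM in BM and 41.8, 28.99 and 24.9 CPM in BMT; 2.31 ± 0.22, adjusted p = 1.82e-05), Cd47, which inhibits phagocytosis (1.62 ± 0.12, adjusted p = 3.69e-06), and Vsir (0.45, 0.318 and 0.43 CPM in BM and 31.7, 22.96 and 18.5 CPM in BMT; 5.91 ± 0.298, adjusted p = 2.67e-07). The other 7 members, Btnl1, Btnl4 and Btnl6 among them, were not called.

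Among genes with a mean of at least 5 CPM, 6 of the 10 largest falls were in enzymes that handle foreign compounds and lipids. Of 31 tested xenobiotic metabolism genes 24 fell and 1 rose (median -1.52), and the list's summed level was 7278 to 7675 CPM in BM and 1941 to 2577 CPM in BMT. Ces1d (ENSMUSG00000056973.6, chromosome 8, 93166068 to 93197838, minus strand), a carboxylesterase, stood at 84.2, 70.9 and 87.2 CPM in BM and 0, 0 and 0.153 CPM in BMT, which is 3 counts in all over the BMT libraries and a ratio of 1768 (95% counting interval 605 to 8575). Its neighbour Ces1g (ENSMUSG00000057074.6, chromosome 8, 93302369 to 93337308, minus strand) stood at 181, 144 and 190.1 CPM in BM and 0.132, 0.0434 and 0.254 CPM in BMT (-10.23 ± 0.299, adjusted p = 3.28e-08, or -10.85 without BMT library 10). The sulfotransferase Sult1c2 stood at 26.9, 31.3 and 24.3 CPM in BM and 0.044, 0.0434 and 0.0508 CPM in BMT, again with 3 counts in BMT and a ratio of 597 (204 to 2898). These 3 genes were close to absent from every BMT library. The cytochrome P450 genes Cyp2f2 (-8.05 ± 0.42, adjusted p = 3.05e-07) and Cyp4b1 (-8.04 ± 0.38, adjusted p = 1.84e-07, or -8.93 without BMT library 6) and the deacetylase Aadac (-6.76 ± 0.303, adjusted p = 1.53e-07) were among these 10 as well. Gstm1, a glutathione transferase, stood at 204, 204 and 221 CPM in BM and 18.8, 16.7 and 27.1 CPM in BMT (-3.33 ± 0.19, adjusted p = 5.14e-07). Adh1, an alcohol dehydrogenase, stood at 496, 629 and 587 CPM in BM and 20.6, 94.1 and 95.2 CPM in BMT (-3.03 ± 0.45, adjusted p = 0.000424). Cyp2c55, a P450 of the colon, stood at 2649, 2319 and 2328 CPM in BM and 749, 155 and 236 CPM in BMT (-2.68 ± 0.48, adjusted p = 0.00125, or -3.63 without BMT library 6). Cyp4f14 was the member that rose (0.69 ± 0.16, adjusted p = 0.00603). The receptor Ahr and its target Tiparp were not called, and Cyp1a1 and Cyp1b1 had 0 counts in all 6 libraries. Genes of the Ces1, Cyp2c, Ugt and Gst families have near-identical copies, so counts of single members are uncertain.

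The remaining large falls belonged to other functions. Prlr, the prolactin receptor, stood at 21.5, 17.3 and 23.1 CPM in BM and 0.352, 0.0868 and 0.661 CPM in BMT (-5.84 ± 0.39, adjusted p = 1.60e-06, or -6.52 without BMT library 10). Clic6, a chloride channel protein, stood at 15.3, 17.7 and 16.9 CPM in BM and 0.132, 0.174 and 0.559 CPM in BMT (-5.88 ± 0.36, adjusted p = 9.09e-07, or -6.71 without BMT library 10). Afm, a vitamin E binding protein, fell from 36.96 ± 4.63 to 0.533 ± 0.298 CPM (mean ± SD, n = 3). Casp14, a caspase of keratinising epithelium, had -6.17 ± 0.57, adjusted p = 1.56e-05, or -8.57 without BMT library 10 and -5.57 without BMT library 6. Slc37a2, a sugar phosphate exchanger, stood at 1763, 1646 and 2074 CPM in BM and 4.26, 42.5 and 81.4 CPM in BMT (-5.42 ± 0.78, adjusted p = 0.000334, or -6.28 without BMT library 10). Prlr, Clic6, Afm and Casp14 were named from genes without overlap between the groups, so their separation was a condition of the choice. Slc37a2 did not overlap either. For all of these 5 genes but Afm the value moved when a BMT library was left out. Among rises outside the T cell lists, Pla2g4c (ENSMUSG00000033847.15, chromosome 7, 13324655 to 13360672, plus strand), a cytosolic phospholipase, stood at 5.3, 7.22 and 10.0 CPM in BM and 1174, 1589.6 and 1384 CPM in BMT (7.52 ± 0.27, adjusted p = 5.26e-08). Krt90 (ENSMUSG00000048699.4, chromosome 15, 101552356 to 101562950, minus strand), a keratin, stood at 0.1, 0 and 0.156 CPM in BM and 123, 39.5 and 32.4 CPM in BMT (9.43 ± 0.78, adjusted p = 7.26e-06, or 8.58 without BMT library 6 and 10.26 without BM library 5). Pnliprp2, a lipase, stood at 0.65, 0.545 and 1.21 CPM in BM and 61.97, 60.3 and 65.3 CPM in BMT (6.24 ± 0.25, adjusted p = 8.19e-08). Chil3, a chitinase-like protein of myeloid cells, was one of the 10 largest rises of genes with a mean of at least 5 CPM, with 1 count over the BM libraries and 49.6, 11.8 and 2.44 CPM in BMT, highest in library 6.

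**Figure D3:**
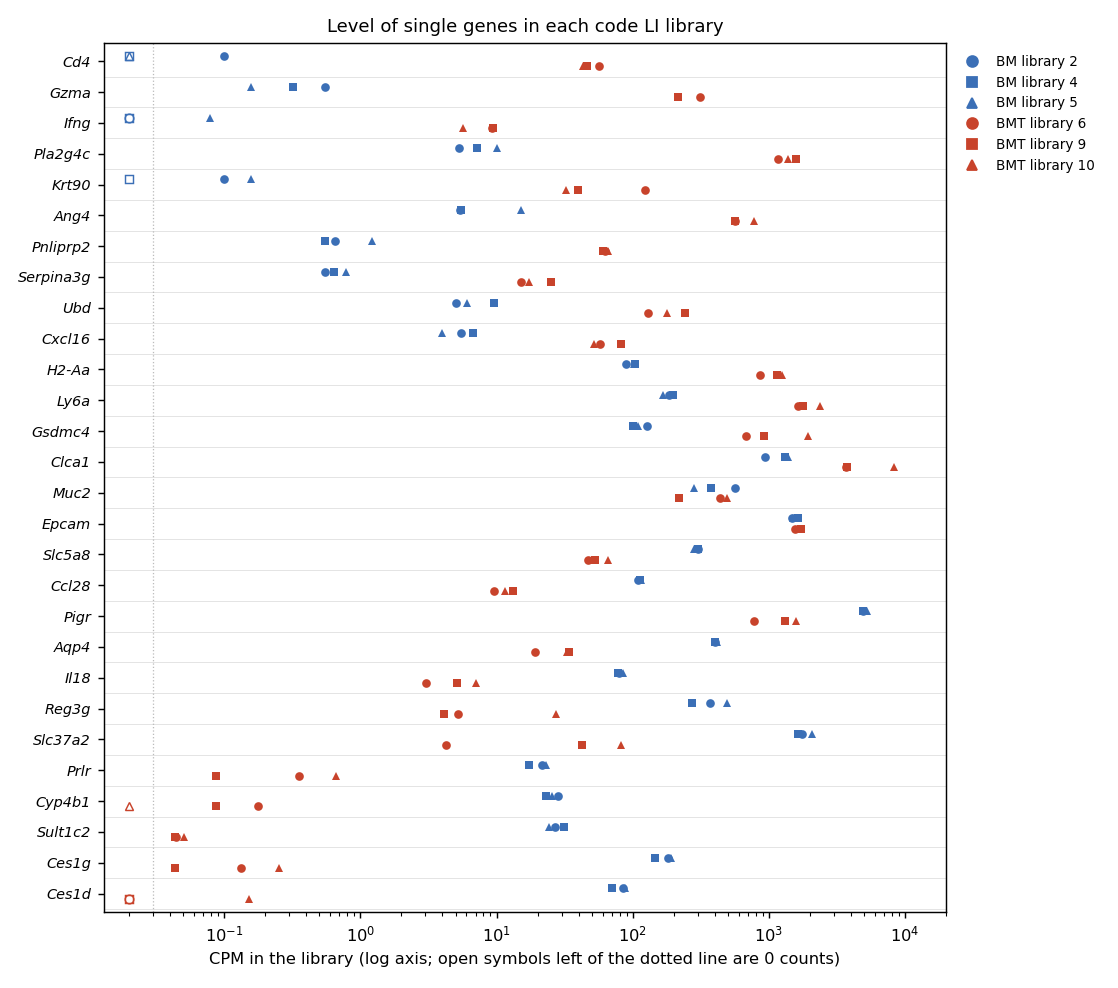
The x axis is CPM in each library on a log scale, with BM in blue and BMT in red, a symbol per library, and open symbols left of the dotted line for 0 counts. Ces1d, Ces1g and Sult1c2 leave the range of their BM libraries by the widest margin among the falls, Epcam and Muc2 overlap between the groups, and Cd4 and Pla2g4c lie far higher in BMT.

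Genes by which colonocytes take up butyrate and burn fatty acids mostly fell. Of 27 tested genes 18 fell and 3 rose (median -0.64). The butyrate transporter Slc5a8 (ENSMUSG00000020062.7, chromosome 10, 88885992 to 88929515, plus strand) stood at 301, 303 and 279.8 CPM in BM and 46.98, 52.3 and 65.9 CPM in BMT (-2.42 ± 0.15, adjusted p = 1.05e-06). The second carrier Slc16a1 stood at 616, 603 and 647 CPM in BM and 265, 252 and 263 CPM in BMT (-1.26 ± 0.12, adjusted p = 1.69e-05). Acsm3, which activates medium-chain fatty acids, stood at 120.2, 128 and 135 CPM in BM and 20.1, 18.1 and 27.5 CPM in BMT (-2.55 ± 0.17, adjusted p = 1.58e-06). Every BMT library was below every BM library in these genes. Ppara, a receptor that controls fatty acid oxidation genes, had -1.603 ± 0.24, adjusted p = 0.000391. Acadl, Slc25a20 and Pdk4 rose, of which Pdk4 overlapped between the groups (21.1, 18.6 and 8.71 CPM in BM and 68.2, 56.6 and 17.3 CPM in BMT; 1.56 ± 0.45, adjusted p = 0.0176) and lost its call without BM library 5 (adjusted p = 0.0703) or BMT library 9 (0.0507) or with 1 fit of 18 libraries (0.0655). Of 13 genes of the mitochondrial chromosome 9 fell (median -0.49), or 5 without BM library 4, for example mt-Nd5 (5037, 4702 and 4413 CPM in BM and 3024, 2713 and 2829.6 CPM in BMT; -0.72 ± 0.13, adjusted p = 0.00117). Of 28 nuclear genes of the respiratory chain 3 fell and 0 rose (median -0.13), namely Ndufa1 (-0.63 ± 0.12, adjusted p = 0.00248), Cox6c (-0.596 ± 0.13, adjusted p = 0.004) and Sdha, and 7 fell without BMT library 10.

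Transport genes moved in both directions, more often down. Of 30 ion and water transport genes 17 fell and 5 rose (median -0.70). Aqp4, a water channel of the basolateral membrane, stood at 401, 404 and 413 CPM in BM and 19.1, 34.1 and 33.0 CPM in BMT (-3.82 ± 0.22, adjusted p = 5.65e-07). Car2, a cytosolic carbonic anhydrase, stood at 1294, 1365 and 1498 CPM in BM and 473, 615 and 474 CPM in BMT (-1.41 ± 0.15, adjusted p = 3.68e-05, not called with all 18 libraries in 1 fit, adjusted p = 0.0765). The chloride bicarbonate exchanger Slc26a3 stood at 1072, 1115 and 1079.6 CPM in BM and 547, 518 and 577 CPM in BMT (-0.99 ± 0.12, adjusted p = 9.76e-05). The chloride channel Cftr stood at 243, 213 and 257 CPM in BM and 68.9, 68.8 and 36.6 CPM in BMT (-2.03 ± 0.22, adjusted p = 5.31e-05). The sodium proton exchanger Slc9a3 was among the 5 that rose (365, 312 and 364 CPM in BM and 1248, 718 and 834 CPM in BMT; 1.43 ± 0.198, adjusted p = 0.000251). So was Car4, a membrane-bound carbonic anhydrase (255, 286 and 294 CPM in BM and 537, 398 and 709 CPM in BMT; 0.98 ± 0.19, adjusted p = 0.00236). The groups did not overlap in these 6 genes. Of 24 absorptive colonocyte genes 9 rose and 9 fell, with the adhesion protein Ceacam20 higher (71.2, 73.9 and 72.6 CPM in BM and 234, 259.7 and 324 CPM in BMT; 1.91 ± 0.15, adjusted p = 4.36e-06). Of 19 tight junction genes 3 rose and 4 fell, among them Cldn4 (1.36 ± 0.25, adjusted p = 0.00146) and Cldn12 (-0.59 ± 0.12, adjusted p = 0.00347). The sealing claudin Cldn8 stood at 32.5, 31.3 and 24.02 CPM in BM and 3.03, 8.12 and 13.7 CPM in BMT (-1.83 ± 0.399, adjusted p = 0.00429). Epcam and Cdh1, adhesion proteins of all epithelium, did not pass (0.098 ± 0.12, adjusted p = 0.553, and 0.11 ± 0.12, adjusted p = 0.522), and the pan-epithelial list summed to 24660 to 27800 CPM in BM and 28700 to 38880 CPM in BMT.

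Secretory and stem cell genes gave a mixed picture. Of 24 goblet cell genes 7 fell and 1 rose, but 16 fell without BMT library 10, so that count rests on 1 library. The mucin Muc2 overlapped between the groups (559, 374 and 283 CPM in BM and 436, 219 and 489 CPM in BMT; -0.09 ± 0.2997, adjusted p = 0.838). Klk1, a kallikrein protease of goblet cells, fell (561, 693 and 588 CPM in BM and 55.2, 70.1 and 162 CPM in BMT; -2.68 ± 0.34, adjusted p = 0.00015, or -3.28 without BMT library 10). B3gnt6, which extends mucin sugars, fell too (11.1, 7.49 and 5.9 CPM in BM and 1.67, 1.22 and 1.78 CPM in BMT; -2.39 ± 0.29, adjusted p = 0.000109). Clca1, a mucus processing protease, was the member that rose (943, 1302 and 1382 CPM in BM and 3668, 3769 and 8264 CPM in BMT; 2.11 ± 0.304, adjusted p = 0.000324). Of 27 enteroendocrine genes 7 fell and 2 rose (median -0.73), with the prohormone convertase Pcsk1 at 14.6, 14.3 and 14.3 CPM in BM and 2.77, 4.99 and 5.24 CPM in BMT (-1.73 ± 0.24, adjusted p = 0.000222). The substance P precursor Tac1 had -1.65 ± 0.28, adjusted p = 0.000988. The 2 that rose, Chga and Tph1, lost their calls under several alternatives. Chga lost its call without BM library 2, 4 or 5 or BMT library 9 (adjusted p = 0.0598 to 0.114) and with 18 libraries in 1 fit (0.162). Tph1 lost its call without BM library 2 or 4 or BMT library 6 or 9 (adjusted p = 0.06 to 0.146), with library totals (0.0504), with the replicate block (0.0676) and with 18 libraries in 1 fit (0.213). Of 23 stem cell genes 8 fell, 3 rose and 12 were not called, or 5 fell without BM library 2 or 5. The 3 that rose were Ascl2 (0.98 ± 0.25, adjusted p = 0.0104), Cd44 (1.16 ± 0.17, adjusted p = 0.000367) and Myc (0.70 ± 0.204, adjusted p = 0.0188). Ascl2 lost its call without BM library 2 (adjusted p = 0.052). Myc overlapped between the groups and lost its call without BM library 4 or 5 or BMT library 9 (adjusted p = 0.0677 to 0.0729). Lgr5, a marker of crypt base stem cells, stood at 7.9, 7.13 and 9.49 CPM in BM and 0.483, 1.65 and 1.53 CPM in BMT (-2.75 ± 0.36, adjusted p = 0.000179). The Notch target Hes1 stood at 80.1, 86.2 and 84.9 CPM in BM and 33.9, 50.9 and 36.4 CPM in BMT (-1.05 ± 0.16, adjusted p = 0.000504). Mfng, a Notch glycosyltransferase that lymphocytes also express, had 4.85 ± 0.31, adjusted p = 1.12e-06. Of 12 tuft cell genes 5 rose and 2 fell, and the defining channel Trpm5 and kinase Dclk1 were not called (-1.01 ± 0.43, adjusted p = 0.0827, and -0.66 ± 0.38, adjusted p = 0.189, the latter passing without BMT library 10, adjusted p = 0.0363). Of the other tuft list members Spib rose (2.94 ± 0.28, adjusted p = 2.16e-05) and Cd24a fell (-1.08 ± 0.14, adjusted p = 0.000138), and lymphoid cells express Spib too.

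Antimicrobial products moved apart. Ang4, an antimicrobial ribonuclease (ENSMUSG00000060615.5, chromosome 14, 51763878 to 51773590, minus strand), stood at 5.4, 5.45 and 15.1 CPM in BM and 558, 567 and 781 CPM in BMT (6.19 ± 0.41, adjusted p = 1.60e-06, or 6.89 without BM library 5). Itln1, a lectin that binds microbial sugars, stood at 60.5, 64.5 and 50.9 CPM in BM and 296, 348 and 622 CPM in BMT (2.85 ± 0.26, adjusted p = 1.48e-05). The lectin Reg3g stood at 367, 273 and 496 CPM in BM and 5.23, 4.08 and 27.1 CPM in BMT (-4.98 ± 0.64, adjusted p = 0.000161, or -6.34 without BMT library 10). Reg3b, its neighbour, stood at 1738, 1653 and 2074 CPM in BM and 102, 48.8 and 262 CPM in BMT (-3.73 ± 0.498, adjusted p = 0.000197, or -4.59 without BMT library 10). The first pair was higher and the Reg3 pair lower in every BMT library. Of 26 antimicrobial and defence genes 13 rose and 5 fell, including Nos2, the inducible nitric oxide synthase (29.3, 16.3 and 16.9 CPM in BM and 66.02, 138 and 176 CPM in BMT; 2.61 ± 0.35, adjusted p = 0.000187), and Sprr2a3, a small proline-rich protein (279, 304 and 229.6 CPM in BM and 1526, 1621 and 1896 CPM in BMT; 2.63 ± 0.16, adjusted p = 8.01e-07). Pigr, which carries IgA across the epithelium, fell (4945, 4887 and 5237 CPM in BM and 774, 1311 and 1582 CPM in BMT; -2.04 ± 0.23, adjusted p = 6.02e-05). S100a8, S100a9 and Lcn2 rose from under 1 CPM, and each was highest in BMT library 6, with 11.6, 8.48 and 7.08 CPM against at most 2.34, 1.996 and 1.17 CPM in the other BMT libraries. Without that library the log2 fold changes of S100a8 and Lcn2 were 3.21 and 1.57 in place of 4.86 and 3.13, and S100a9 had 1 count over the BM libraries, a ratio of 269 (95% counting interval 47.8 to 10650). S100a8 stood at 5.47 without BM library 2, and Lcn2 lost its call without BM library 5 (adjusted p = 0.0541). Among oxidant genes, the glutathione peroxidase Gpx2 rose (1.86 ± 0.13, adjusted p = 2.05e-06), and catalase (Cat) and the quinone reductase Nqo1 fell (-1.87 ± 0.15, adjusted p = 6.74e-06, and -1.81 ± 0.18, adjusted p = 2.78e-05). Of 10 M cell genes 8 were tested, and Gp2 and Sox8 were too low for it. Of the 8 tested 6 rose, with the largest fold change in Tnfaip2 (2.803 ± 0.38, adjusted p = 0.000209), a gene at low level (0.45, 0.409 and 0.586 CPM in BM and 5.05, 2.69 and 2.49 CPM in BMT). The smallest p belonged to Pglyrp1, which binds bacterial walls (114, 127 and 101 CPM in BM and 355, 537 and 457 CPM in BMT; 1.98 ± 0.17, adjusted p = 1.02e-05), and Marcksl1 (1.49 ± 0.17, adjusted p = 5.91e-05).

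Genes of proliferation, injury repair and cell death rose more often than all genes did. Of 30 cell cycle genes 27 rose and 0 fell (median 0.92). The replication helicase subunit Mcm5 stood at 72.8, 66.2 and 66.8 CPM in BM and 175, 192 and 166 CPM in BMT (1.37 ± 0.12, adjusted p = 1.19e-05). The mitotic kinase Aurka stood at 29.8, 24.8 and 26.4 CPM in BM and 71.2, 70.3 and 64.8 CPM in BMT (1.35 ± 0.13, adjusted p = 1.98e-05). Mki67, Cenpf and Kif11 were not called, and Mki67 overlapped between the groups (176, 104 and 128 CPM in BM and 209, 193 and 101 CPM in BMT; 0.302 ± 0.26, adjusted p = 0.388), passing without BMT library 10 (adjusted p = 0.0218). Dividing T cells express the same genes, and the part of the T cell sums given above in these values was not tested. Of 25 repair and fetal-like epithelial genes 16 rose and 2 fell (median 1.16). Ly6a, also known as Sca-1, stood at 184, 196 and 166 CPM in BM and 1637, 1793 and 2365 CPM in BMT (3.41 ± 0.17, adjusted p = 2.86e-07). The growth factor Areg stood at 41.3, 42.01 and 42.8 CPM in BM and 163, 125 and 68.1 CPM in BMT (1.501 ± 0.26, adjusted p = 0.000971). Krt18, a keratin of simple epithelium, stood at 451, 472 and 453 CPM in BM and 1041, 795 and 956 CPM in BMT (1.02 ± 0.14, adjusted p = 0.000196). Ly6a is expressed by T cells as well. Of 33 cell death genes 16 rose and 1 fell (median 0.49). Ripk3, the kinase of necroptosis, stood at 52.8, 49.0 and 53.9 CPM in BM and 156, 142 and 174 CPM in BMT (1.5996 ± 0.13, adjusted p = 5.77e-06). The pore former Gsdmc4 stood at 126, 99.5 and 109 CPM in BM and 679, 917 and 1939.8 CPM in BMT (3.403 ± 0.34, adjusted p = 2.93e-05), highest in BMT library 10. Gsdme, another gasdermin, was the member that fell (46.6, 37.4 and 40.3 CPM in BM and 10.3, 7.81 and 6.71 CPM in BMT; -2.32 ± 0.19, adjusted p = 6.10e-06).

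Stress and metabolic lists held both rises and falls. Of 27 unfolded protein and amino acid response genes 12 rose and 3 fell (median 0.36). Among the 12 were Sdf2l1, Creld2, Manf and Calr, and the 3 were Dnajb9, Xbp1 and Ern2. The serine synthesis enzymes Psat1 (16.8, 15.8 and 17.1 CPM in BM and 88.1, 108 and 106 CPM in BMT; 2.603 ± 0.14, adjusted p = 3.09e-07) and Phgdh (1.74 ± 0.16, adjusted p = 1.67e-05) and asparagine synthetase (Asns, 32.3, 32.8 and 33.2 CPM in BM and 84.03, 107 and 144 CPM in BMT; 1.77 ± 0.18, adjusted p = 3.68e-05) rose, while the chaperones Hspa5, Hsp90b1 and Pdia4 were not called. Of 25 hypoxia and glycolysis genes 14 rose and 5 fell, with the glycolytic activator Pfkfb3 at 1.55, 1.68 and 1.45 CPM in BM and 8.31, 9.24 and 8.95 CPM in BMT (2.5002 ± 0.21, adjusted p = 7.11e-06) and the lactate exporter Slc16a3 at 1.85 ± 0.21, adjusted p = 6.90e-05. Of 25 p53 targets 6 rose and 4 fell, and Cdkn1a did not pass (392, 427 and 323 CPM in BM and 410.4, 354 and 515 CPM in BMT; 0.16 ± 0.17, adjusted p = 0.459), both groups having been irradiated. Btg2, an antiproliferative p53 target, fell (672, 701 and 792 CPM in BM and 282, 263 and 273 CPM in BMT; -1.404 ± 0.13, adjusted p = 1.24e-05), and Gtse1 rose (1.16 ± 0.16, adjusted p = 0.000227). Of 24 cholesterol synthesis genes 8 rose and 2 fell, with Stard4, a sterol carrier, at -0.86 ± 0.13, adjusted p = 0.000469, and 5 rose without BM library 4. Of 15 clock genes 4 rose and 6 fell, with Nr1d2 at -1.41 ± 0.17, adjusted p = 8.04e-05 and Nfil3 at 1.11 ± 0.17, adjusted p = 0.000441. Of 20 tryptophan, arginine and NAD genes 12 rose and 3 fell. Ido2 stood under 1 CPM in BM and at 2.99, 2.56 and 2.39 CPM in BMT (5.35 ± 0.44, adjusted p = 6.50e-06).

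The series title names bile acid metabolism by microbes, and the bile acid genes of code LI epithelium are therefore described gene by gene. In the bowel, bile acids enter epithelium through Slc10a2, are carried by Fabp6, leave through the Slc51a and Slc51b pair, and act on receptors such as Nr1h4 (FXR) and Vdr. Of 18 tested genes 6 rose and 7 fell, with 5 not called, which is 13 of 18 against 41.4% of all genes. Slc51b (ENSMUSG00000053862.6, chromosome 9, 65412714 to 65422955, minus strand) stood at 30.1, 33.9 and 33.9 CPM in BM and 113, 101 and 118 CPM in BMT (1.76 ± 0.13, adjusted p = 2.83e-06). Its partner Slc51a stood at 66.1, 65.7 and 50.2 CPM in BM and 102, 88.02 and 112 CPM in BMT (0.73 ± 0.15, adjusted p = 0.00308). Sult2b1, a sterol sulfotransferase, stood at 54.3, 59.9 and 40.3 CPM in BM and 119.6, 136 and 170.3 CPM in BMT (1.46 ± 0.18, adjusted p = 0.000118). In these 3 genes each BMT library was above each BM library. The uptake carrier Slc10a2 overlapped between the groups (79.2, 79.2 and 72.5 CPM in BM and 131, 63.97 and 40.3 CPM in BMT; 0.03 ± 0.33, adjusted p = 0.952), and without BMT library 6 it was lower in BMT (-0.55, adjusted p = 0.0414). Fabp6, which was low here, stood at 4.75, 5.4 and 11.9 CPM in BM and 1.32, 0.825 and 1.93 CPM in BMT (-2.45 ± 0.41, adjusted p = 0.000932).

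The bile acid receptors differed in direction. Nr1h4 stood at 90.2, 116 and 107 CPM in BM and 158, 146 and 132 CPM in BMT and rose (0.48 ± 0.14, adjusted p = 0.0167), but not without BM library 2 (adjusted p = 0.0885). Vdr stood at 596, 600.2 and 615 CPM in BM and 311, 312 and 544 CPM in BMT (-0.63 ± 0.21, adjusted p = 0.0299). The xenobiotic receptor Nr1i2 stood at 90.03, 92.7 and 85.04 CPM in BM and 65.8, 64.02 and 75.4 CPM in BMT (-0.38 ± 0.12, adjusted p = 0.0271). Both lost their calls without any 1 of 5 libraries, which were all but BMT library 10 (adjusted p = 0.0674 to 0.123 and 0.0604 to 0.115), Vdr also with 18 libraries in 1 fit (0.0863) and Nr1i2 also without a filter on low counts (0.0709) and with the replicate block (0.0739). Nr1i3, a further xenobiotic receptor, fell (-1.45 ± 0.31, adjusted p = 0.00377), and S1pr2, a sphingolipid receptor that conjugated bile acids activate, rose (1.65, 2.18 and 2.7 CPM in BM and 6.15, 6.94 and 5.03 CPM in BMT; 1.47 ± 0.25, adjusted p = 0.00101). Hnf4a (-0.01 ± 0.15, adjusted p = 0.948), Rxra (-0.37 ± 0.21, adjusted p = 0.183) and Cyp3a13 (-0.33 ± 0.14, adjusted p = 0.0779) did not pass. Rxra passed without BMT library 10 (adjusted p = 0.000615) and was then lower in BMT. The export pumps fell, with Abcc3 at 543, 522 and 465 CPM in BM and 198, 166 and 295 CPM in BMT (-1.22 ± 0.198, adjusted p = 0.000729), Abcb1a at 616, 456 and 456 CPM in BM and 261, 128 and 108 CPM in BMT (-1.62 ± 0.29, adjusted p = 0.00142) and Abcg2 at -0.86 ± 0.14, adjusted p = 0.000712. Slco2a1, a prostaglandin carrier, had 1.04 ± 0.25, adjusted p = 0.00749.

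**Figure D4:**
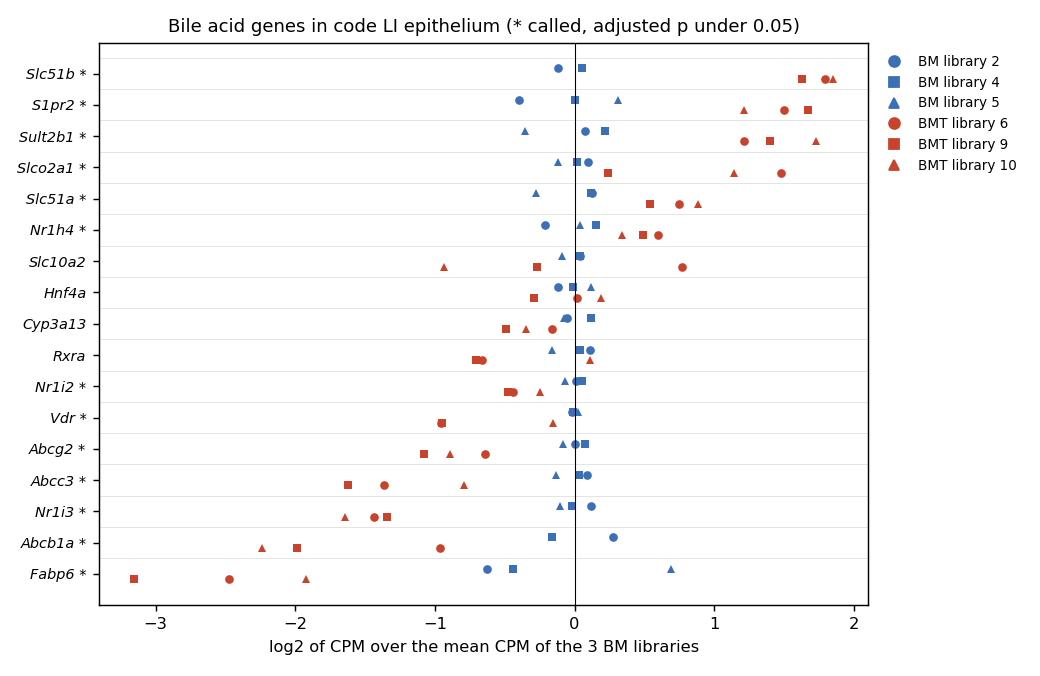
The x axis is the log2 ratio of CPM in each library to the mean CPM of the 3 BM libraries, for 17 tested bile acid genes, with called genes starred. Slc51b is highest and Fabp6 lowest in BMT, and the BMT libraries of Slc10a2 spread to both sides of 0.

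The BMT effect was then compared with that in the 6 code SI libraries, in 1 model over 12 libraries with the description number as a block. Of 15815 genes 1095 (6.92%) differed in their BMT effect, 601 (3.80%) with a more positive and 494 (3.12%) with a more negative value in code LI. That count was 510 to 549 without any 1 BM library of either set, 710 to 718 without number 6 in either set, and 2006 or 2073 without BMT library 9 of code LI or of code SI. Ang4 rose in code LI and stood at 0.19 ± 0.35 in code SI (difference 6.18 ± 0.56, adjusted p = 0.000108), and Pnliprp2 stood at -0.201 ± 0.34 there (difference 6.52 ± 0.496, adjusted p = 3.71e-05). Cyp4b1 stood at 0.67 ± 0.27 in code SI (difference -8.703 ± 0.45, adjusted p = 3.30e-06). Prlr stood at 0.08 ± 0.38 (difference -5.904 ± 0.37, adjusted p = 1.36e-05). These 4 genes moved by more than 5 on the log2 scale in code LI and by less than 1 in code SI. Ces1g fell in both sets, with -2.83 ± 0.55 in code SI (difference -7.56 ± 0.77, adjusted p = 0.000203). Slc5a8 stood at 0.28 ± 0.24 in code SI (difference -2.63 ± 0.21, adjusted p = 4.58e-05), and Gzma rose in both (4.46 ± 0.64 in code SI, difference 4.97 ± 0.62, adjusted p = 0.000777). Krt90 was too low in code SI to be tested alone, and its difference was 8.45 ± 1.13, adjusted p = 0.0012. The differences of these 8 genes kept their calls without each library in turn.

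Counted by list, the differences were uneven. Of 28 enteroendocrine genes 12 differed, all more positive in code LI, where 7 fell, against 24 of 26 that fell in code SI. Over all genes of code SI, 11.8% fell. Of 31 xenobiotic genes 12 were more negative and 2 more positive in code LI, and of 28 butyrate and fatty acid oxidation genes 8 were more negative and 0 more positive, with 18 fallen in code LI and 2 in code SI. Of 16 deep crypt and Paneth-like genes 7 differed and 0 were more negative, and of 23 stem cell genes 8 were more positive and 1 more negative. Of 19 tuft cell genes 7 were more negative and 0 more positive in code LI, and 13 of 19 rose in code SI, where 11.6% of all genes rose. The 7 became 4 without BM library 4 and 3 without BM library 5, of either set, and 4 with 18 libraries in 1 fit. Trpm5 stood at 3.496 ± 0.42 in code SI (difference -4.55 ± 0.495, adjusted p = 0.000293) and Dclk1 at 2.895 ± 0.59 (difference -3.59 ± 0.58, adjusted p = 0.00332, or -4.32 without BM library 2 of code LI). Of 35 interferon gamma genes 2 differed in each direction. The class II chain H2-Aa rose in both sets (3.06 ± 0.26 in code SI), and its difference was 0.396 ± 0.23, adjusted p = 0.345. Among bile acid genes, Slc51b (1.33 ± 0.22, adjusted p = 0.00396) and Slc51a (1.05 ± 0.22, adjusted p = 0.0134) were more positive and Cyp3a13 (-1.02 ± 0.21, adjusted p = 0.0141) more negative in code LI. The call of Slc51a was lost without BM number 5 of code LI (adjusted p = 0.0697) and that of Cyp3a13 without BM number 4 (0.0823) or BMT number 6 (0.0587) of code LI, likewise with those of code SI. The libraries of both sets carry the same 6 description numbers, so the sets may not be independent and were not treated as such. Same-numbered libraries correlated at only -0.048 to 0.208, and the labels do not say what the numbers stand for.

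**Figure D5:**
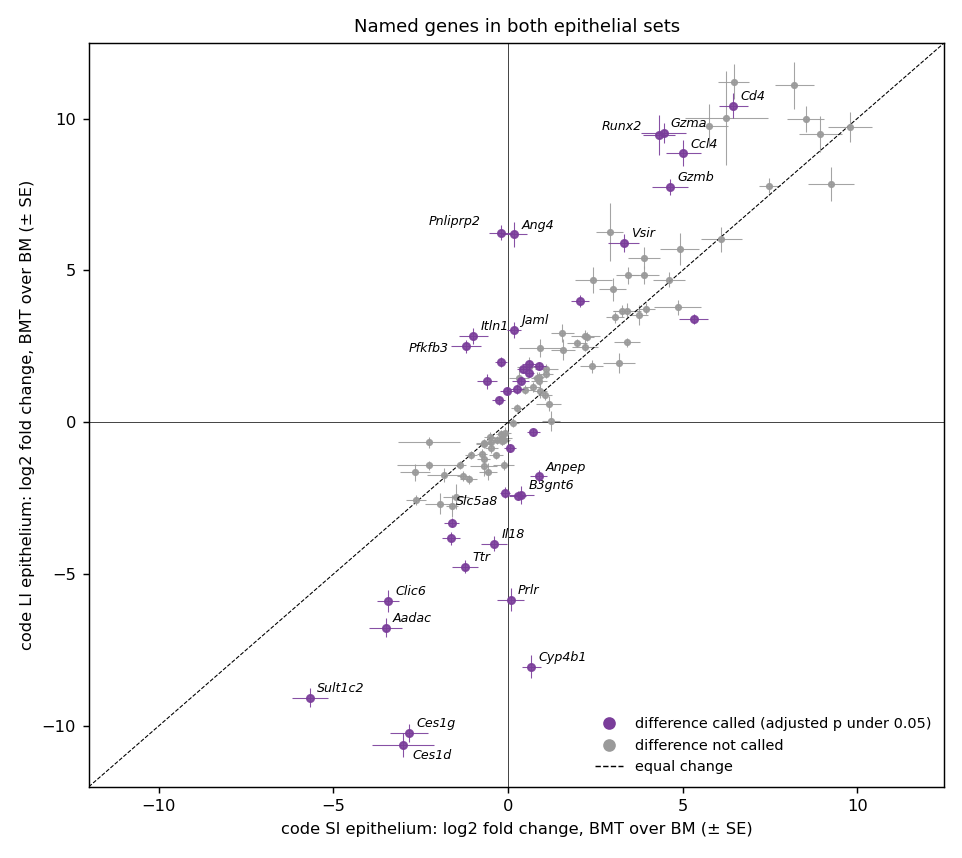
Each point is 1 of 118 named genes tested in both sets, the x axis is its log2 fold change, BMT over BM, in code SI and the y axis that in code LI, with standard errors, and 40 genes whose difference passed at an adjusted p of 0.05 are in purple. Ang4, Pnliprp2, Cyp4b1 and Prlr lie near 0 on the x axis and far from it on the y axis.

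Markers of cells other than epithelium and T cells were read to describe what the fractions held. Of 14 tested monocyte and macrophage genes 12 rose and 1 fell, among them Ccr2, a chemokine receptor (6.03 ± 0.41, adjusted p = 1.90e-06). Ly6c2, of inflammatory monocytes, stood at 1.3, 1.32 and 0.664 CPM in BM and 30.4, 25.6 and 28.4 CPM in BMT (4.697 ± 0.25, adjusted p = 3.56e-07). C1qa, a complement subunit of tissue macrophages, fell (14.3, 11.4 and 12.1 CPM in BM and 6.24, 3.78 and 4.88 CPM in BMT; -1.35 ± 0.22, adjusted p = 0.000672). C1qb and C1qc, the other C1q genes of that list, rose. Of 12 dendritic cell genes only 3 were tested, Itgax (5.43 ± 0.36, adjusted p = 1.67e-06), Irf4 (5.696 ± 0.53, adjusted p = 1.71e-05) and Sirpa, and all 3 rose. The others, Flt3, Zbtb46, Xcr1 and Clec9a among them, were too low to be tested. As in the T cell lists, genes near 0 in BM can pass the filter only through BMT. The shares of tested myeloid genes that rose are therefore partly set by the filter. Lyz2 was highest in BMT library 6 (1.95, 2.13 and 2.66 CPM in BM and 53.4, 14.3 and 13.98 CPM in BMT; 3.59 ± 0.52, adjusted p = 0.00032, or 2.65 without that library). Of 16 neutrophil genes 7 were tested, of which 6 rose and 1 fell. Ly6g stood at 69.4, 76.3 and 78.7 CPM in BM and 1339, 634 and 1125 CPM in BMT (3.79 ± 0.26, adjusted p = 1.77e-06). The gene that fell was Cd177, a surface protein of neutrophils, at 139, 149.6 and 100.04 CPM in BM and 24.3, 54.9 and 77.6 CPM in BMT (-1.31 ± 0.33, adjusted p = 0.00976). The other 14 genes of that list summed to 0.954 to 1.85 CPM in BM and to 47.3, 12.9 and 9.2 CPM in BMT. Elane was at 0 in 4 of the 6 libraries, and Ly6g belongs to a gene family with close copies. Of 5 B and plasma cell genes 1 rose (Ighm, 4.69 ± 0.44, adjusted p = 1.67e-05) and 1 fell (Xbp1, which secretory epithelium also expresses). Xbp1 lost its call without any 1 library but BMT library 10 (adjusted p = 0.0598 to 0.141), and Pax5 had 0 counts throughout. Of 10 fibroblast and smooth muscle genes 2 rose, Vim (4.95, 6.77 and 4.84 CPM in BM and 104, 86.6 and 72.9 CPM in BMT; 3.99 ± 0.198, adjusted p = 2.58e-07) and Acta2 (2.45 ± 0.31, adjusted p = 0.000135), while the collagen genes Col1a1, Col1a2 and Col3a1 were not called. The endothelial list summed to 8.08 to 9.25 CPM in BM and 9.55 to 12.4 CPM in BMT and the erythroid list to 0.977 to 6.1 CPM in BM and 0.661 to 1.3 CPM in BMT. Ttr and Alb, plasma proteins made in the liver, fell from 19.6 ± 1.68 and 1.35 ± 0.436 CPM to 0.725 ± 0.147 and 0.133 ± 0.112 CPM (mean ± SD, n = 3), and Alb had -4.13 without BMT library 9 and lost its call with 18 libraries in 1 fit (adjusted p = 0.177). Apoh, the other tested gene of the hepatocyte list, rose from a low level (0.05, 0.182 and 0.312 CPM in BM and 0.747, 1.48 and 1.47 CPM in BMT; 2.66 ± 0.52, adjusted p = 0.00235, or 3.33 without BM library 5).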

How the data were processed

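RNA of isolated intestinal epithelial cells was read by polyA-selected stranded sequencing. Per the submitters' processing notes, reads were handled with FastQC 0.11.9, STAR 2.7.0e and featureCounts 1.6.3 on GRCm38.p5, and the authors deposited raw counts per gene. The sources used here do not give the annotation release or the strand setting, so overlapping and antisense genes are uncertain. Of 53379 gene IDs 53274 had a symbol, and coordinates are GRCm38.

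Counts were fitted with edgeR 4.0.16 (filterByExpr by group, TMM, quasi-likelihood test, R 4.3.3) at an adjusted p of 0.05, and CPM use TMM-scaled library sizes. The difference from code SI was an interaction over 12 libraries with the description number as a block. Correlations of same-numbered libraries were -0.048 to 0.208, so that block rests on the descriptions. Replicates are not stated to be separate animals, and the spread behind the p-values may then be technical. Alternatives were DESeq2 1.42.0, other size factors, library totals, no filter, no mitochondrial genes, 1 library left out, a replicate block, lane L002 only and all 18 libraries in 1 fit. The fits were tested on simulated data. A group at 0 was set to a floor of 3 counts.

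Named genes were the 10 largest rises and falls without overlap at a mean of at least 5 CPM, the 2 smallest p of each list, the 3 region markers and bile acid genes, and the 5 largest differences from code SI in each direction. A further 119 genes were chosen after their values were seen. Some of the genes these rules name are not reported here. The members and lists were chosen with earlier results of these data known.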

Additional observations from a re-analysis of the deposited data

Results flagged for a closer look

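In 43 of the 126 named genes the BMT effect differed between code LI and code SI by the test of the difference itself (edgeR quasi-likelihood, n = 3 per group and set). Each value below is code LI minus code SI on the log2 scale. Of all genes, 6.92% passed that test. Some named genes were chosen for a large difference in this same test, and others for large changes or small p in code LI. The count of 43 is therefore partly set by the choice of genes and cannot be weighed against the share of all genes. For 27 genes the call held without each library in turn, for 16 it was lost without at least 1 library, and the sign was kept in all 43.

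Among genes whose call held, lymphocyte genes were more positive in code LI, namely the granzyme Gzma at 4.97 and the adhesion molecule Jaml at 2.87, with Vim, an intermediate filament, at 1.89. Enzymes were more negative, with Ces1g at -7.56, Cyp4b1 at -8.70 and Aadac at -3.16. Membrane proteins and carriers stood at -5.90 for Prlr, -2.42 for Clic6, -2.17 for Aqp4, -2.63 for Slc5a8 and -2.55 for Anpep, a brush border peptidase, while Slc51b stood at 1.33, Ceacam20 at 1.35 and Cldn4 at 1.89. Secreted and defence products were at 6.18 for Ang4, 4.03 for Itln1, 2.18 for Pglyrp1 and -2.81 for the mucin glycosyltransferase B3gnt6. The cytokines Il18 and Ccl28 were at -3.49 and -1.68, and Cd47 at 1.03. Pfkfb3 stood at 3.48, Gsdme at -2.23, Pnliprp2 at 6.52 and Krt90 at 8.45. The plasma proteins Ttr and Alb stood at -3.54 and -11.69, and both were low in code LI. Alb held 2, 6 and 1 counts in BMT libraries 6, 9 and 10 of code LI. Over the code SI libraries Alb ran from 0 to 94.83 CPM, so its fitted value depends on the prior count.

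The other 16 calls were lost without at least 1 library. Where a group has few counts, as in the first 6 genes here, the fitted value depends on the prior count. Cd4 stood at 3.91 (adjusted p = 0.117 without BM number 2 of code LI), Runx2, a transcription factor of T cells, at 5.06 (0.118 without BM number 2), Ccl4 at 3.77 (0.207 without BM number 2), Ces1d at -7.68 (0.169 without BMT number 10), Sult1c2 at -3.34 (0.296 without BMT number 10) and Cyp2f2 at -9.48 (0.983 without BMT number 10). Gzmb stood at 3.03 and Vsir at 2.49, both lost without BM number 2 (0.089 and 0.103) or 5 (0.0505 and 0.0626). Ly6a stood at -1.92, lost without BM number 2 (0.0846) or 4 (0.0626). Mcm5 stood at 1.08, lost without BM number 4 (0.0609) or 5 (0.091). Krt18 at 1.06, Gpx2 at 0.98, Stard4 at -0.89 and Nfil3 at 0.88 lost their calls without any 1 BM library of code LI, with an adjusted p without BM number 2 of 0.106, 0.076, 0.0968 and 0.089. Slc51a stood at 1.05 and Cyp3a13 at -1.02.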

How the results depend on the processing

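The count of 6157 called genes ran from 4821 to 7220 over the alternatives that kept the threshold, those being the values without BM library 4 and without BMT library 10, and 3107 passed with a change of at least 1 on the log2 scale. Of 119 called genes named by rule 111 kept the call under every alternative run. Most of them were picked for large changes or small p, so this is not the share of all called genes. Of the 6157, 4620 to 4782 were called again without 1 BM library and 5119 to 5885 without 1 BMT library. Among all called genes none took the other sign. The fit with the title number as a replicate block called 5367 genes. Those numbers did not pair the samples, with correlations of 0.045, -0.064 and -0.13, so this is no measure of a weaker effect. The count of genes whose effect differed from code SI was 1989 without a filter on low counts, 1016 with no replicate block and 510 to 2073 when 1 library was left out. The region difference ran from 8.047 to 8.227 without 1 pair. Signs turned only in genes that were not called. Slc10a2 ran from -0.553 without BMT library 6 to 0.351 without BMT library 10 and stood at -0.142 with the replicate block. Hnf4a stood at 0.002 with DESeq2, 0.003 with other size factors, 0.01 without mitochondrial genes, 0.008 without a filter, 0.07 without BM library 5, and from -0.122 to 0.135 (without BMT library 10 and 9) when 1 library was left out. Muc2 ran from -0.298 without BMT library 10 to 0.217 without BMT library 9, with 0.208 without BM library 2. The cause of these shifts was not tested. Genes with few counts in a group carry wide intervals, which cover counting error only.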

Other observations

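The families and genes in this part were chosen after their values were seen. All 9 called genes of 11 tested carboxylesterases (Ces) fell, as did 6 of 6 Cyp2c and 7 of 7 Ugt genes, and 9 of 17 aldehyde dehydrogenases fell with 2 higher. Of 43 proteasome genes (Psm) 36 rose and 0 fell (median 0.60), while of 83 ribosomal protein genes 6 rose and 1 fell. Of 14 keratin genes 9 rose and 0 fell (median 0.96), and all 3 Gsdmc genes rose. Of 25 Hox genes 8 fell and 0 rose, against 21% of all genes that fell. Of 248 solute carriers 82 fell and 47 rose.

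Some genes with a mean of at least 5 CPM in BM rose far above that level. Ly6e, a membrane protein induced by interferon, stood at 33.5, 32.02 and 34.8 CPM in BM and 473, 797 and 814 CPM in BMT (4.38 ± 0.22, adjusted p = 2.67e-07). S100g, a calcium binding protein of absorptive cells, stood at 27.1, 29.8 and 33.01 CPM in BM and 667, 221 and 396 CPM in BMT (3.84 ± 0.34, adjusted p = 1.29e-05) and at 0.68 ± 0.45 in code SI. Creb3l3, a membrane-bound transcription factor of lipid metabolism, stood at 6.2, 7.04 and 3.67 CPM in BM and 65.8, 60.7 and 52.8 CPM in BMT (3.41 ± 0.23, adjusted p = 1.73e-06). Ly6c1 stood at 22.2, 19.3 and 16.1 CPM in BM and 303, 336 and 521 CPM in BMT (4.33 ± 0.24, adjusted p = 4.07e-07). These 4 genes did not overlap between the groups, which describes genes chosen after their values were seen. S100g was lowest in BMT library 9.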
